A study of Mus musculus with 84 samples.

Results

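Fenthion (FT) is an organophosphate insecticide, and the livers of mice fed FT at 10 ppm in the diet were compared with those of control mice. Both groups were male B6C3F1 mice, a hybrid laboratory strain, 8 weeks old, and received AIN-93G diet for 7 days, with FT mixed into it (FT 10 ppm) or without any pesticide (control). The comparison was fixed by the treatment labels: 7 mice carried the label FT 10 ppm and 7 the control label, 14 of the 84 mice in 12 groups, and the other groups received FT at 2.5, 5 or 20 ppm, methidathion or parathion. Mice are numbered here 1 to 7 within a group in the order of their records, so that the numbers pair no mice. Cages, not single mice, were assigned to diets, and the tissue was archived frozen liver from an earlier study, taken from several lobes. The labels do not give the cage, so the p-values measure the spread between mice and not between cages. In the test of single genes (edgeR) this spread was estimated over all 84 mice, not over the 14 alone.

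The labels place the mice in 3 experimental blocks, numbered 1, 3 and 4. Either group drew 2 mice from block 1, 3 from block 3 and 2 from block 4. RNA of all 7 FT 10 ppm mice was isolated by one laboratory, Expression Analysis (EA), whereas RNA of control mice 3 and 6 was isolated by another, the U.S. EPA. Gene expression was measured by TempO-Seq, in which 2 detector oligos bind next to each other on an mRNA, are joined by a ligase and are then counted by sequencing. Total counts ranged from 9840552 to 13326762 in the control mice and from 8733512 to 13528658 in the FT 10 ppm mice. In these 14 mice 3 counts correspond to between 0.222 and 0.344 CPM (counts scaled to the total of the mouse), which covers counting error only. Control mouse 1 and FT 10 ppm mouse 2 stood apart. In control mouse 1, 82 of the 10415 tested genes differed more than 4-fold from the median mouse, against 1 to 26 genes in the other 13 mice, and FT 10 ppm mouse 2 had the lowest median Spearman correlation with the other mice (0.963). They lay farthest out on the third and the second of the principal components of the 14 mice, which held 12.5% and 18.8% of the variance. The first component, with 30.2%, set control mice 3, 5 and 6 apart, at -0.462, -0.404 and -0.521 against -0.0965 to 0.306 in the other mice. All 15 hepatocyte markers were measured, and their summed level ranged from 52306 to 63565 CPM in the control mice and from 51093 to 58506 CPM at FT 10 ppm.

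FT belongs to the thiophosphates, which liver cytochromes P450 oxidise to an oxon that blocks acetylcholinesterase, the enzyme that ends the signal of the neurotransmitter acetylcholine. Carboxylesterases bind such oxons and paraoxonases hydrolyse them, and glucuronosyltransferases, sulfotransferases and glutathione transferases join polar groups to the breakdown products. Hepatocytes adjust many of these enzymes through nuclear receptors such as CAR and PXR, and those of fatty acid oxidation through PPAR alpha. They also secrete most plasma proteins, among them the acute phase proteins, whose synthesis changes when interleukins reach the liver.

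At FT 10 ppm 22 genes differed from the control, 12 higher and 10 lower (edgeR, FDR-adjusted p under 0.05 and at least 2-fold), which is 0.211% of the 10415 genes tested (0.115% higher and 0.0960% lower). Enzymes of drug, retinol and fatty acid metabolism were among the higher genes (Ugt1a5, Cyp2c55, Rdh16 and Cyp4a10), and the lower genes included the plasma proteins Lrg1 and A2m, the protease Capn8 and the precursors of the secreted peptides nesfatin-1 (Nucb2) and adropin (Enho). The adjusted p alone was under 0.05 for 164 genes, or 1.57%, of which 87 were higher and 77 lower. An unadjusted p under 0.05 was found for 1843 genes, or 17.7%. Of the 22 genes, 16 had a median count under 50 over the 84 mice, and the CPM ranges of the groups overlapped for all but Magoh, while they did not overlap for 51, or 0.490%, of all tested genes. In 20 of the 22 genes the difference of the mean log2(CPM + 0.5) had the fitted direction within each of the 3 blocks, the exceptions being Rpl10a and Cyp2c55. The genes were chosen for their difference in the same mice, which favours such agreement, so this count is a description only. The set of called genes depended on the mice and settings used. It was empty without control mouse 5, without FT 10 ppm mouse 4 and without block 3, for which edgeR left 1333, 1505 and 882 genes with an unadjusted p under 0.05. All 22 genes kept their direction in every one of the 30 other fits in which they could be tested, except Rpl10a in 3 of them. Their calls were less stable. An adjusted p under 0.05 was kept in 24 of 29 fits for Magoh, but in 6 of 28 for Fbxo38, 8 of 29 for Tap1, 9 of 28 for Slc16a12, 9 of 30 for Atp11a, 10 of 29 for A2m, 12 of 29 for Enho and 14 of 30 for Lrg1 and Rdh16. With only the control and FT 10 ppm mice in the fit, and without block 1, 3 and 2 genes were called and none of them was among the 22.

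**Figure D1:**
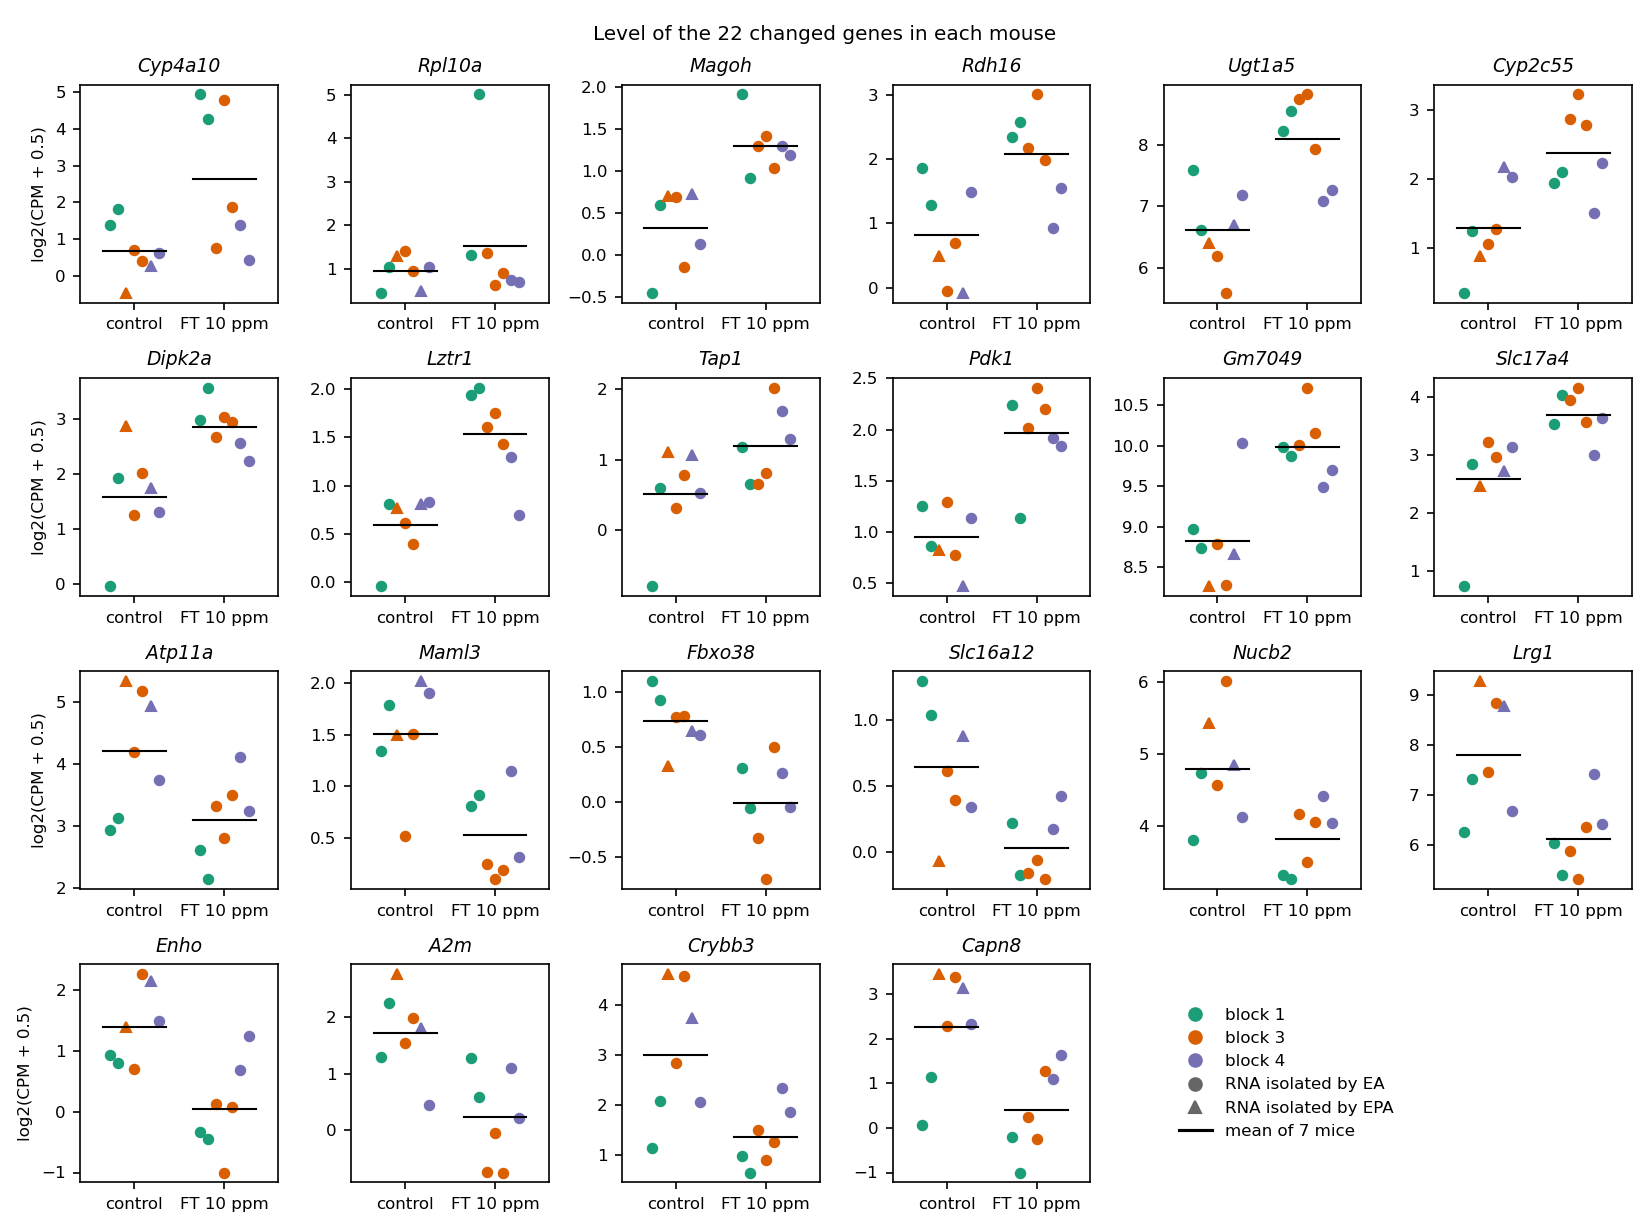
Level of each of the 22 changed genes in the 7 control and 7 FT 10 ppm mice, as log2(CPM + 0.5), ordered by fitted log2 fold change. Each point is 1 mouse, coloured by block, with triangles for RNA isolated by EPA, and the line is the group mean. The groups separate without overlap for Magoh alone, and 1 FT 10 ppm mouse carries the difference of Rpl10a.

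**Figure D2:**
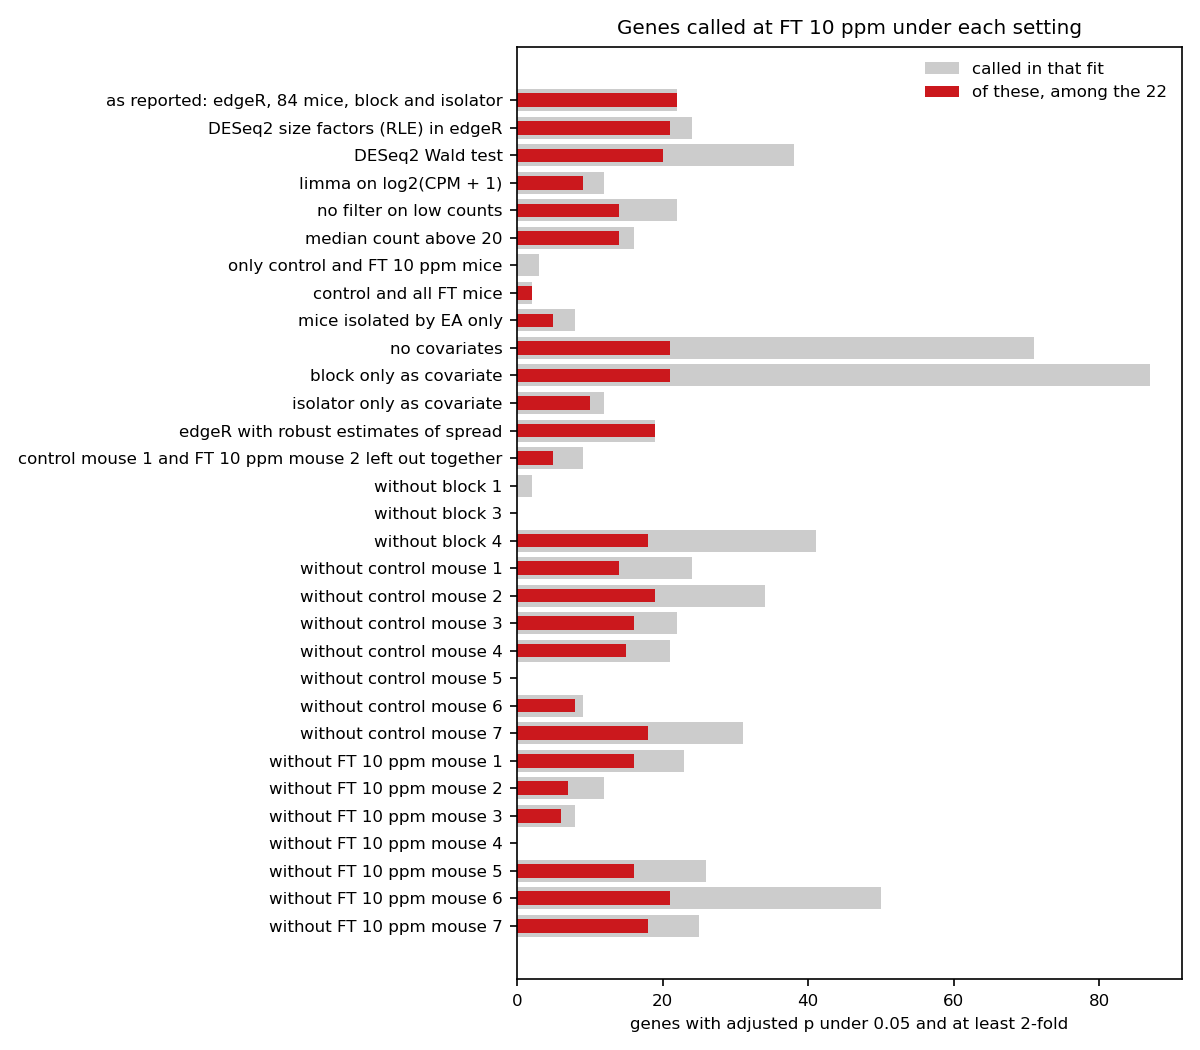
Number of genes with an adjusted p under 0.05 and at least 2-fold at FT 10 ppm under each setting, in grey, and how many of them were among the 22, in red. The reported fit gave 22 genes, and the others between 0 and 87.

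Among the enzymes that act on foreign compounds, Ugt1a5, a glucuronosyltransferase (chromosome 1, 88093707 to 88147724 of GRCm39, forward strand), was higher at FT 10 ppm. Control mice had between 47.7 and 192 CPM with a median of 97.0, and FT 10 ppm mice between 135 and 451 CPM with a median of 299. The 5 FT 10 ppm mice of blocks 1 and 3 lay above every control mouse, and the 2 of block 4 lay within the control range. The log2 fold change was 1.45 (standard error 0.335, adjusted p = 0.024 by edgeR). Ugt1a5 shares its last exons with 8 other Ugt1a genes of the count table, so reads could be split between them, and its separate level is uncertain. Cyp2c55, a P450 that oxidises arachidonic and other fatty acids (chromosome 19, 38995462 to 39031144, forward strand), had 0.783 to 4.00 CPM (median 1.87) in control mice and 2.35 to 8.82 CPM (median 4.20) at FT 10 ppm. The block 3 mice on FT had the highest values, whereas in block 4 the FT mice had 2.35 and 4.20 CPM and the control mice 4.00 and 3.58 CPM. Its log2 fold change was 1.33 (standard error 0.296, adjusted p = 0.024). Cyp2c55 has close paralogs between which reads could likewise be split.

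Cyp4a10 (chromosome 4, 115375461 to 115390849, forward strand), which hydroxylates the end carbon of fatty acids and is a classical target of PPAR alpha, had the largest fold change among the 22 genes. It had 0.225 to 3.04 CPM (median 1.02) in control mice and 0.839 to 30.3 CPM (median 3.20) at FT 10 ppm. FT 10 ppm mice 1, 2 and 4 held 30.3, 18.9 and 27.02 CPM, 3 of the others lay within the control range, and mouse 5 lay just above it. The log2 fold change was 3.10 (standard error 0.715, adjusted p = 0.024) and ranged from 1.812 to 3.403 over the other fits. Reads that Cyp4a10 may share with other Cyp4a genes could not be checked, so its separate level is uncertain. Rdh16 (chromosome 10, 127637001 to 127682434, forward strand), a dehydrogenase of retinol and some steroids, had 0.445 to 3.13 CPM (median 1.12) in control mice and 1.41 to 7.56 CPM (median 4.02) with FT. All but the 2 block 4 mice on FT exceeded the highest control mouse, and the log2 fold change was 1.46 (standard error 0.409, adjusted p = 0.0481). An annotated pseudogene, Rdh18-ps, overlaps it on the same strand. Pdk1 (chromosome 2, 71703488 to 71734202, forward strand) encodes a kinase that switches off pyruvate dehydrogenase and so limits the entry of glucose carbon into the citric acid cycle. Its control values were 0.890 to 1.96 CPM (median 1.32), its FT 10 ppm values 1.70 to 4.81 CPM (median 3.53). Only FT 10 ppm mouse 2 lay within the control range, and the log2 fold change was 1.13 (standard error 0.283, adjusted p = 0.0300).

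Slc17a4 (chromosome 13, 24079873 to 24098994, reverse strand) belongs to a family of transporters of phosphate and organic anions. It had 1.17 to 8.86 CPM (median 6.69) in control mice and 7.51 to 17.4 CPM (median 11.9) at FT 10 ppm. A single FT mouse lay within the control range, and the log2 fold change was 1.08 (standard error 0.257, adjusted p = 0.024). Tap1 (chromosome 17, 34405996 to 34416199, forward strand), which carries peptides to MHC class I molecules, had 0.0783 to 1.65 CPM (median 1.01) in control mice and 1.08 to 3.56 CPM (median 1.77) with FT. Its groups overlapped in 3 FT mice, and the log2 fold change was 1.23 (standard error 0.336, adjusted p = 0.0461). Exons of Tap1 lie across from those of Psmb9 on the other strand.

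Magoh, Lztr1 and Dipk2a were also higher, all at low counts. Magoh (chromosome 4, 107736943 to 107744621, forward strand) encodes a core protein of the exon junction complex, which marks spliced mRNA. It had 0.235 to 1.16 CPM (median 1.01) in control mice and 1.39 to 3.25 CPM (median 1.95) at FT 10 ppm, so that every FT mouse lay above every control mouse. Its counts were 3 to 15 and 17 to 44, and the log2 fold change was 1.48 (standard error 0.325, adjusted p = 0.0224). Lztr1 (chromosome 16, 17326299 to 17344202, forward strand), an adaptor through which a cullin ubiquitin ligase reaches RAS proteins, had 0.470 to 1.28 CPM (median 1.20) in control mice and 1.12 to 3.55 CPM (median 2.55) with FT. Only FT 10 ppm mouse 7 lay within the control range, and the log2 fold change was 1.31 (standard error 0.301, adjusted p = 0.024). Dipk2a (chromosome 9, 94399917 to 94420360, reverse strand), of a family of divergent protein kinases, had 0.470 to 6.75 CPM (median 2.85) in control mice and 4.20 to 11.3 CPM (median 7.22) with FT. Control mouse 3 reached into the FT range, and the log2 fold change was 1.32 (standard error 0.339, adjusted p = 0.0322). Control mouse 1 was the lowest control mouse for 7 of the 12 higher genes (58.3%), against 19.7% of all tested genes, and the 7 were Slc17a4, Lztr1, Cyp2c55, Magoh, Tap1, Rpl10a and Dipk2a. Without this mouse Slc17a4, Lztr1, Cyp2c55, Magoh, Tap1 and Dipk2a had log2 fold changes of 0.88, 1.12, 1.21, 1.28, 1.00 and 1.07, and of these only Cyp2c55 and Magoh still had an adjusted p under 0.05 (0.0448 and 0.0465).

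The other 2 higher genes are uncertain for different reasons. Gm7049 (chromosome 13, 62960890 to 62962601, forward strand) is annotated as a processed pseudogene, a copy of an mRNA in the genome, so its counts may belong to reads of the gene it was copied from. It had 308 to 1046 CPM (median 425) in control mice and 719 to 1683 CPM (median 1011) at FT 10 ppm. Control mouse 7 lay among the FT mice while the other control mice did not exceed 500 CPM, and the log2 fold change was 1.12 (standard error 0.282, adjusted p = 0.0305). Rpl10a (chromosome 17, 28547144 to 28550008, forward strand), a protein of the large ribosomal subunit with pseudogene copies, had 0.861 to 2.14 CPM (median 1.54) in control mice and 1.03 to 31.5 CPM (median 1.37) with FT. The value of 31.5 CPM, a count of 409, came from FT 10 ppm mouse 2, and the other 6 FT mice lay within the control range. The log2 fold change was 1.63 (standard error 0.407, adjusted p = 0.0300) with this mouse and -0.04 without it (adjusted p = 0.949), so that the call rested on 1 mouse.

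Of the lower genes, Lrg1 (chromosome 17, 56426283 to 56429001, reverse strand) encodes a plasma glycoprotein that hepatocytes secrete in the acute phase. Control mice had between 76.3 and 626 CPM with a median of 177, and FT 10 ppm mice between 39.3 and 172 CPM with a median of 65.6. Control mice 3, 5 and 6 had 626, 463 and 443 CPM, control mouse 4 lay just above the FT range and the remaining 3 control mice lay within it. The log2 fold change was -1.56 (standard error 0.422, adjusted p = 0.0444). A2m (chromosome 6, 121612335 to 121656186, forward strand), a plasma inhibitor of many proteases, had 0.853 to 6.30 CPM (median 3.03) in control mice and 0.0913 to 1.92 CPM (median 0.653) with FT. Only control mouse 7 fell into the FT range, and the log2 fold change was -2.03 (standard error 0.5684, adjusted p = 0.0481).

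Capn8 (chromosome 1, 182392572 to 182459917, forward strand), a calcium-dependent protease best known from the stomach, had the largest decrease among the 22 genes. It had 0.548 to 10.4 CPM (median 4.52) in control mice and 0 to 2.61 CPM (median 0.687) at FT 10 ppm. Control mice 3, 5 and 6 had 10.4, 9.96 and 8.27 CPM, and control mice 1 and 2 lay within the FT range. Its log2 fold change was -2.31 (standard error 0.5685, adjusted p = 0.0288). Of the 9 calpain genes tested, Capn5 was lower as well, with 2.78 to 3.58 CPM in control mice and 1.72 to 2.52 CPM with FT, ranges that did not overlap. Its log2 fold change of -0.62 (adjusted p = 0.0461) was below the 2-fold limit. Among all tested genes 0.739% were lower by the adjusted test, and the ranges of 0.490% did not overlap. The 9 calpains had a median log2 fold change of -0.05, with 4 higher and 5 lower whatever their p. Crybb3 (chromosome 5, 113223705 to 113229450, reverse strand), which encodes a crystallin, a structural protein of the eye lens, had 1.72 to 24.01 CPM (median 6.71) in control mice and 1.08 to 4.61 CPM (median 1.92) with FT. As for Capn8, control mice 3, 5 and 6 were the highest, with 24.01, 23.4 and 12.9 CPM, and the log2 fold change was -2.26 (standard error 0.583, adjusted p = 0.0341).

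Nucb2 (chromosome 7, 116103580 to 116139822, forward strand), the precursor of nesfatin-1, a peptide that lowers food intake, had 13.5 to 64.2 CPM (median 26.1) in control mice and 9.02 to 20.7 CPM (median 15.9) with FT. Control mice 1 and 7 lay within the FT range, and the log2 fold change was -1.19 (standard error 0.305, adjusted p = 0.0322). Enho (chromosome 4, 41638144 to 41640376, reverse strand), the precursor of adropin, a peptide of energy balance, had 1.12 to 4.27 CPM (median 2.10) in control mice and 0 to 1.87 CPM (median 0.548) at FT 10 ppm. Counts were 0 in FT 10 ppm mouse 4, and only FT 10 ppm mouse 7 rose above the lowest control mouse. The log2 fold change was -1.57 (standard error 0.441, adjusted p = 0.0481). Exons of Enho overlap those of Dnai1 on the other strand.

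Atp11a (chromosome 8, 12807003 to 12918729, forward strand), a flippase that moves phospholipids to the inner side of the cell membrane, had 7.20 to 40.2 CPM (median 17.8) in control mice and 3.93 to 16.8 CPM (median 9.05) with FT. Control mice 3, 5 and 6 again stood highest, and the log2 fold change was -1.10 (standard error 0.309, adjusted p = 0.0481). Slc16a12 (chromosome 19, 34642642 to 34724858, reverse strand), a transporter of creatine, had 0.450 to 1.96 CPM (median 1.03) in control mice and 0.365 to 0.839 CPM (median 0.458) with FT. The ranges overlapped in control mice 3, 5 and 7, and the log2 fold change was -1.17 (standard error 0.321, adjusted p = 0.0461). Maml3 (chromosome 3, 51593328 to 52012497, reverse strand), a coactivator of Notch signalling, had 0.933 to 3.56 CPM (median 2.34) in control mice and 0.573 to 1.72 CPM (median 0.746) at FT 10 ppm. Only control mouse 4 lay within the FT range, and the log2 fold change was -1.13 (standard error 0.261, adjusted p = 0.024). Fbxo38, which brings proteins to a ubiquitin ligase, had 0.750 to 1.64 CPM (median 1.21) in control mice and 0.115 to 0.913 CPM (median 0.466) with FT. Only control mouse 3 lay within the FT range, counts were 1 to 10 in the FT mice, and the log2 fold change was -1.13 (standard error 0.323, adjusted p = 0.0499).

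Control mice 3, 5 and 6 were the 3 highest control mice for 5 of the 10 lower genes (50.0%), namely Crybb3, Nucb2, Atp11a, Lrg1 and Capn8, against 11.3% of all tested genes. They also had the highest summed level of 38 acute phase genes, with 207326, 204405 and 154879 CPM, and were followed by control mouse 4 with 148949 CPM. Control mice 1, 2 and 7 had 94483, 112103 and 98559 CPM, and FT 10 ppm mice ranged from 81515 to 123909 CPM with a median of 91506. The inflammation gene Saa1, a serum amyloid A, had 306 to 27579 CPM (median 13815) in control mice and 60.1 to 6237 CPM (median 256) at FT 10 ppm. Lcn2, another gene of inflamed liver, had 10.7 to 7230 CPM (median 689) in control mice and 7.79 to 203 CPM (median 17.7) with FT. In both genes control mice 3, 4, 5 and 6 lay above every FT mouse and the other control mice lay among them, and the part of this spread in the 10 lower genes was not tested. Saa1 and its near-identical copy Saa2 did not pass, with log2 fold changes of -3.25 (adjusted p = 0.160) and -3.75 (adjusted p = 0.185), and their separate levels are uncertain. Control mice 3 and 6 were the ones isolated by EPA, and the mean log2(CPM + 0.5) of Lrg1, Crybb3, Capn8 and Atp11a was higher in them than in the 5 other control mice by 1.72, 1.64, 1.45 and 1.30. Against the 5 EA control mice alone, the difference at FT 10 ppm was -1.20, -1.18, -1.44 and -0.73 on this scale.

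**Figure D3:**
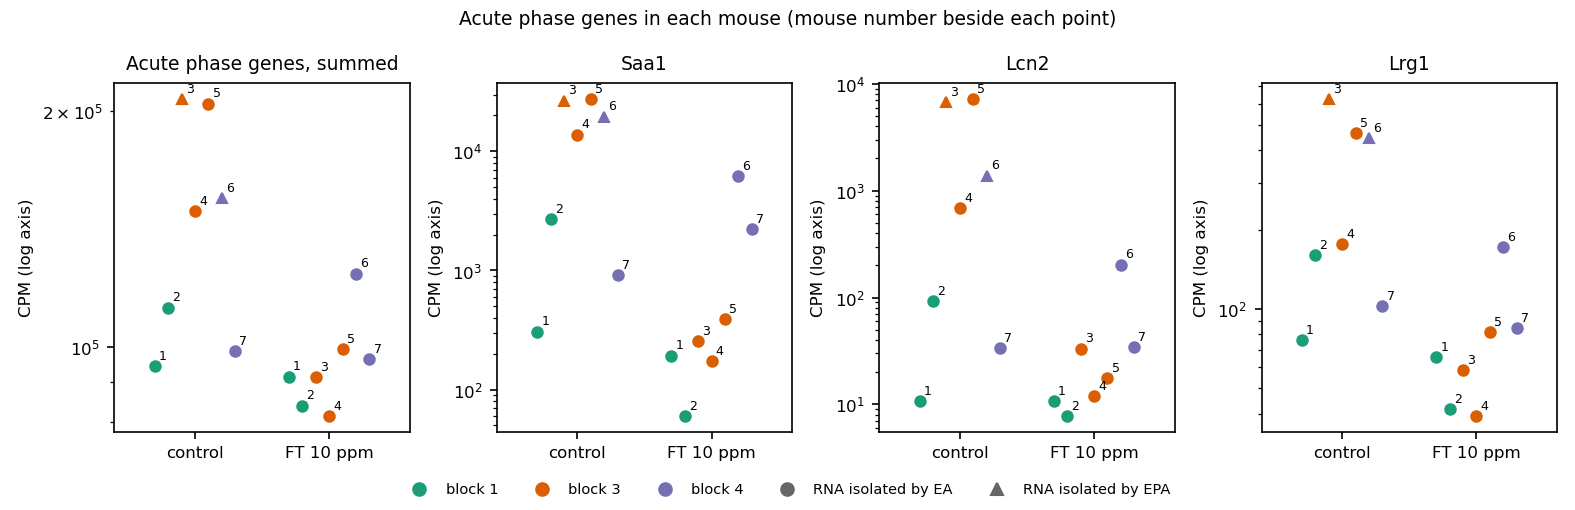
Summed level of 38 acute phase genes and levels of Saa1, Lcn2 and Lrg1 in each control and FT 10 ppm mouse, in CPM on a log axis. Points are mice with their number, coloured by block, with triangles for RNA isolated by EPA. Control mice 3, 4, 5 and 6 lie above all FT 10 ppm mice in the summed level, and control mice 1, 2 and 7 do not.

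Acute phase genes that passed the test were lower at FT 10 ppm. Of 36 tested members 3 passed the adjusted test, all lower, namely A2m, C3 (the central complement protein; log2 fold change -0.68, adjusted p = 0.0463) and Itih3 (which binds hyaluronan; -0.85, adjusted p = 0.0499). The adjusted test called 0.739% of all genes lower. At an unadjusted p under 0.05, 24 were lower and 1, Hamp2, was higher, where 8.82% of all genes were lower and 8.87% higher, and the median log2 fold change was -0.80 against -0.01 over all genes. Further members with small p were Orm2 (-4.36, adjusted p = 0.0665), an acid glycoprotein, Apcs (-1.24, adjusted p = 0.0746), which encodes serum amyloid P, and Itih4 (-0.75, adjusted p = 0.0881). With EA mice alone no member passed the adjusted test by edgeR, 12 members were lower at an unadjusted p under 0.05 and the median was -0.57. Without block 3, which holds control mice 3, 4 and 5, these values were 0, 1 and -0.33. No member passed either when any 1 of control mice 3, 5 and 6 or FT 10 ppm mice 3, 4, 5 and 7 was left out, with 15 to 22 members lower at an unadjusted p under 0.05. None passed without a filter on low counts or with isolator only, where 25 were lower in each. With only the control and FT 10 ppm mice, with control and all FT mice and without block 1 none passed, and 15, 19 and 20 were lower. Of 38 genes of complement and coagulation 4 passed, all lower. These were C3, C6 (-0.79, adjusted p = 0.0224), a part of the membrane attack complex, Vtn (-0.39, adjusted p = 0.0402), which binds it, and F5 (-0.34, adjusted p = 0.0481), the clotting cofactor. The median of this list was -0.20, with 16 members lower and 2 higher at an unadjusted p under 0.05. No member passed by edgeR without control mouse 5, without FT 10 ppm mouse 4 or without block 3, where 10, 11 and 3 members were lower at an unadjusted p under 0.05, and the median was -0.096 without block 3.

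Cytochromes P450 of foreign-compound metabolism were higher where they passed the test. Of 40 tested members 3 passed, against 0.835% of all genes called higher at this limit, and they were Cyp2c55, Cyp2c29 and Cyp3a11. Cyp2c29 had 593 to 1579 CPM (median 919) in control mice and 962 to 3226 CPM (median 1664) at FT 10 ppm, with a log2 fold change of 0.87 (adjusted p = 0.024). Cyp3a11, a main drug-oxidising P450 of mouse liver and a PXR target, had 21.8 to 73.2 CPM (median 42.2) in control mice and 62.5 to 166 CPM (median 96.5) with FT. The control and FT ranges of both genes overlapped, and the log2 fold change of Cyp3a11 was 0.99 (adjusted p = 0.0300), just under 2-fold. The median of the list was 0.23. At an unadjusted p under 0.05, 13 members were higher and 1, Cyp3a13, was lower (8.87% and 8.82% of all genes). With EA mice alone these were 9 and 1, and without block 3 they were 3 and 0 with a median of 0.14. No member passed the adjusted test by edgeR without control mouse 5, without FT 10 ppm mouse 4 or without block 3. At an unadjusted p under 0.05, 11, 10 and 3 members were higher there, and 1333, 1505 and 882 of all genes differed in either direction. None passed either with only the control and FT 10 ppm mice, with control and all FT mice or without block 1, where 10, 13 and 12 were higher. With control mouse 1 and FT 10 ppm mouse 2 left out together none passed and 11 were higher. Cyp3a13 (-0.80, adjusted p = 0.0545), Cyp2c54 (0.75, adjusted p = 0.0571), Cyp2c68 (0.53, adjusted p = 0.0775) and Cyp2c39 (1.29, adjusted p = 0.0858) were the next members by p. The Cyp2c and Cyp3a genes have close paralogs, so their separate values are uncertain.

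Of 46 conjugating enzymes and flavin monooxygenases 2 were higher and 1 was lower by the adjusted test, against 0.835% and 0.739% of all genes. Beside Ugt1a5 these were the sulfotransferase Sult1a1, with 427.9 to 564.1 CPM in control mice and 564.5 to 897.9 CPM with FT, and the glucuronosyltransferase Ugt2b35, with 204.5 to 344.3 CPM and 122.3 to 196.3 CPM. The groups did not overlap for either gene (0.490% of all genes), although those of Sult1a1 met, and the log2 fold changes were 0.60 (adjusted p = 0.0461) and -0.48 (adjusted p = 0.0495). At an unadjusted p under 0.05, 18 members were higher and 1 lower (8.87% and 8.82% of all genes), and the median was 0.20. Next by p were Ugt1a1 (0.36, adjusted p = 0.0571), the bilirubin-conjugating enzyme, Gsta3 (0.49, adjusted p = 0.0705), Gstm4 (0.52, adjusted p = 0.0772) and Ugt1a6a (0.26, adjusted p = 0.0773). No member passed without control mouse 5, without FT 10 ppm mouse 3 or 4 or without block 3 by edgeR, where 10, 16, 9 and 2 were higher and 1 was lower at an unadjusted p under 0.05, and the median without block 3 was 0.05. None passed either with only the control and FT 10 ppm mice or without block 1, where 9 and 16 were higher and 1 was lower.

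**Figure D4:**
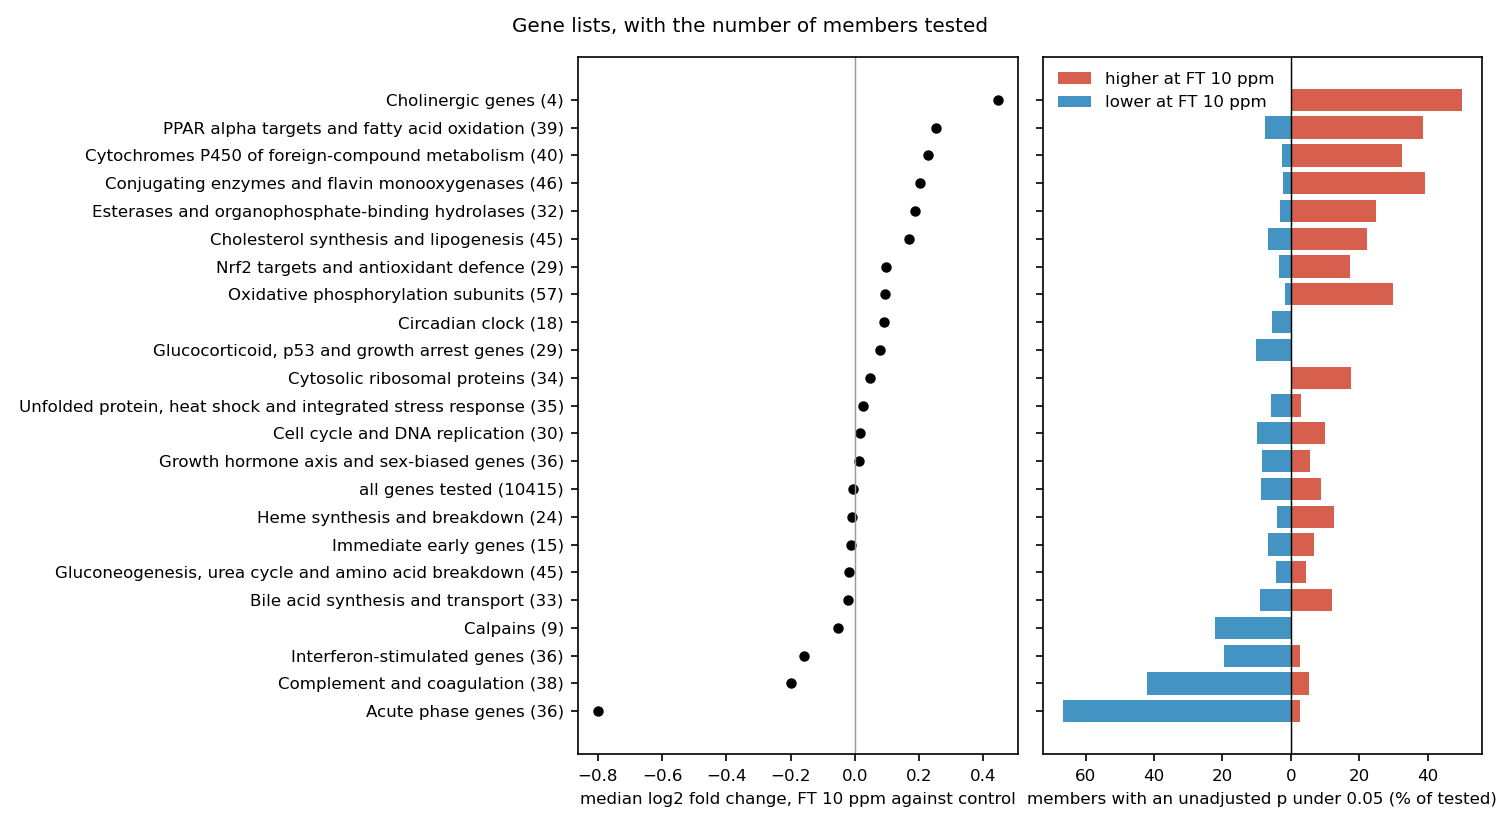
Gene lists by the median log2 fold change of their tested members (left) and by the percent of tested members with an unadjusted p under 0.05, higher to the right and lower to the left (right), with the number tested in brackets. Acute phase genes lie lowest, at -0.80 with 24 of 36 lower, and all genes tested lie at -0.01.

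None of the 32 esterases and related hydrolases tested passed the adjusted test in the reported edgeR fit or by DESeq2. At an unadjusted p under 0.05, 8 were higher and 1 lower (8.87% and 8.82% of all genes), and their median log2 fold change was 0.19. In other edgeR fits 1 passed without FT 10 ppm mouse 6, 2 with no covariates and 3 with block only, all higher. The carboxylesterases Ces2e (0.62, adjusted p = 0.0862), Ces4a (-1.29, adjusted p = 0.0954) and Ces1d (0.90, adjusted p = 0.102) had the smallest p, followed by Bphl (0.42, adjusted p = 0.123), a serine hydrolase. Ache, which encodes acetylcholinesterase, the target of FT oxon, was close to the limit of the assay, with counts of 0 to 13 in control mice (median 5) and 1 to 8 at FT 10 ppm (median 4). In CPM these were 0 to 0.975 and 0.115 to 0.591, and all 7 FT mice lay within the control range. Fitted without the filter on low counts, its log2 fold change was -0.24 (standard error 0.465, adjusted p = 0.906), and it turned to 0.15 with the control and FT 10 ppm mice alone. A difference of the size of this error, or somewhat larger, would not pass the test at this depth. No absence of change is read from the value. Of 23 cholinergic genes 13 were in the table and 4 passed the filter, Bche (0.23, adjusted p = 0.232), Chrna4 (1.03, adjusted p = 0.249), Chrm3 (-1.01, adjusted p = 0.289) and Chrna2 (0.66, adjusted p = 0.411).

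Of 39 PPAR alpha targets and genes of fatty acid oxidation 3 were higher, against 0.835% of all genes, among them Cyp4a10 and Hadhb (0.63, adjusted p = 0.0481), a subunit of the mitochondrial trifunctional protein. Hadhb had 22.6 to 40.2 CPM (median 28.3) in control mice and 34.1 to 61 CPM (median 47.1) at FT 10 ppm, so that the groups overlapped. At an unadjusted p under 0.05, 15 members were higher and 3 lower (8.87% and 8.82% of all genes), and the median was 0.25. No member passed the adjusted test by limma, or by edgeR with EA mice alone, without control mouse 5 or without FT 10 ppm mouse 4, where 10 to 15 were higher at an unadjusted p under 0.05. None passed by edgeR with only the control and FT 10 ppm mice, with control and all FT mice, without block 1 or without block 3. There 13, 14, 13 and 3 were higher. With control mouse 1 and FT 10 ppm mouse 2 left out together none passed and 12 were higher. Next by p were Acadl (0.51, adjusted p = 0.0595), an acyl-CoA dehydrogenase, Acaa1b (0.88, adjusted p = 0.124), a peroxisomal thiolase, Pdk4 (1.27, adjusted p = 0.135) and Ehhadh (0.51, adjusted p = 0.139). With EA mice alone 10 were higher and 2 lower at an unadjusted p under 0.05, and without block 3 these were 3 and 2. Of 57 subunits of oxidative phosphorylation 2 were higher, against 0.835% of all genes, Atp5pb (0.29, adjusted p = 0.0300) of ATP synthase and Ndufb2 (0.26, adjusted p = 0.0402) of complex I, and 17 were higher and 1 lower at an unadjusted p under 0.05 (8.87% and 8.82% of all genes). By edgeR no subunit passed with only the control and FT 10 ppm mice, without control mouse 5 or without block 3, where 6, 9 and 8 were higher at an unadjusted p under 0.05. The CPM of Ndufb2 were 227 to 301 in control mice and 316 to 350 with FT and did not overlap (0.490% of all genes), although the difference was small.

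In other lists single genes passed. With their log2 fold changes they were Elovl5 (0.68), which elongates fatty acids, Abca1 (-0.42), which exports cholesterol, Fth1 (0.30), the heavy chain of the iron store ferritin, Nr3c1 (-0.43), the glucocorticoid receptor, and Parp14 (-0.47), an ADP-ribosyltransferase induced by interferon. Of 36 interferon-stimulated genes Tap1 was higher and Parp14 lower, against 0.835% and 0.739% of all genes, and at an unadjusted p under 0.05 7 were lower and 1 higher (8.82% and 8.87% of all genes), with a median of -0.16. Next by p were Oas1a (-0.84, adjusted p = 0.0872) and Zbp1 (-0.92, adjusted p = 0.152). Of 34 cytosolic ribosomal proteins only Rpl10a passed, and 6 were higher at an unadjusted p under 0.05. In the reported edgeR fit no member passed among 18 genes of the circadian clock, 35 of the stress responses, 30 of the cell cycle, 15 immediate early genes or 45 of gluconeogenesis and amino acid breakdown. There 1, 3, 6, 2 and 4 members had an unadjusted p under 0.05, against 17.7% of all genes. By DESeq2 1 immediate early gene passed, and in some other edgeR fits single members passed, such as 1 clock gene with block only. The clock output gene Dbp varied with the mouse, between 8.33 and 531 CPM in control mice and between 11.8 and 725 CPM at FT 10 ppm, and in both groups the 2 mice of block 1 were the highest.

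The 10 genes with the smallest p below the 2-fold limit included Got2-ps1, Afdn, Bccip, Cyb5r3, Slc47a1, Dennd1a, Colec12, C6 and Nr3c1. Cyb5r3, a reductase that passes electrons to cytochrome b5, had 252 to 502 CPM (median 325) in control mice and 395 to 566 CPM (median 520) at FT 10 ppm, and its log2 fold change was 0.53 (standard error 0.116, adjusted p = 0.0224). Slc47a1, which exports organic cations into bile, had 16.05 to 25.42 CPM (median 20.4) in control mice and 23.4 to 34.9 CPM (median 28.7) with FT, where the log2 fold change reached 0.57 (standard error 0.124, adjusted p = 0.0224). The groups of both genes overlapped slightly. Afdn, a protein of cell junctions, had 7.367 to 16.99 CPM (median 12.7) in control mice and 3.55 to 7.82 CPM (median 5.78) with FT, where the log2 fold change reached -0.82 (standard error 0.169, adjusted p = 0.0224). Colec12, a scavenger receptor, and Bccip, a partner of BRCA2 and p21, were lower by -0.90 and -0.46, and Dennd1a, a regulator of endocytosis, was higher by 0.44. Got2-ps1, a pseudogene of the aminotransferase gene Got2, had 0.32 and is uncertain for the reason given for Gm7049. Each of these 10 genes had the fitted direction in all 3 blocks, which their choice by p in the same mice favours.

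The markers of other liver cell types were compared as summed CPM by an exact permutation test (two-sided, 7 against 7 mice). In bulk tissue fewer cells of a type and less RNA per cell cannot be told apart. The 12 neutrophil and monocyte markers summed to 8.36 to 30.5 CPM (median 14.2) in control mice and 5.496 to 13.54 CPM (median 11.5) at FT 10 ppm, a difference of -0.68 on the log2 scale (p = 0.0344 by the exact test, 0.378 adjusted over 11 marker lists). Kupffer cell and macrophage markers summed to 312 to 517 CPM (median 392) and 290 to 424 CPM (median 359), with a difference of -0.18 (exact p = 0.191, adjusted 0.527). Of 12 tested members 4 were lower at an unadjusted p under 0.05 by edgeR, against 8.82% of all genes. The other 9 lists had exact p between 0.0787 and 0.921. Apoa4 (log2 fold change 0.89, adjusted p = 0.024), of the periportal list, and Oit3 (0.30, adjusted p = 0.04), of the endothelial list, were the only marker genes that passed the adjusted test. Both were higher, as were 0.835% of all genes at this limit. Whatever their p, 6 periportal markers were higher and 7 lower (median log2 fold change -0.01). Of the endothelial markers 4 were higher and 9 lower (median -0.08). Markers of fat and pancreas, which could mark neighbouring tissue, summed to 2.04 to 30.6 CPM in control mice and 1.28 to 6.73 CPM with FT, and 2 of 14 were at 0 in all 14 mice. The part of other cell types in the 22 genes was not tested.

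At the other FT doses the 22 genes were compared with the same control mice, so the doses are given side by side only. No gene of the 10415 passed both limits at 2.5, 5 or 20 ppm by edgeR, where 1116, 790 and 415 had an unadjusted p under 0.05 (10.7%, 7.59% and 3.98%). The adjusted p alone was under 0.05 for 1 gene at 2.5 ppm (0.00960%) and for none at 5 and 20 ppm. Of the 22 genes 16, 12 and 5 had an unadjusted p under 0.05 there, and 20, 20 and 21 had the direction found at 10 ppm. Capn8 had log2 fold changes of -1.49, -2.34, -2.31 and -1.02 at 2.5, 5, 10 and 20 ppm, and Crybb3 -1.53, -2.39, -2.26 and -0.87. Cyp4a10 had 0.98, 1.33, 3.10 and 2.33, and Ugt1a5 0.44, 1.03, 1.45 and 0.47. The fold change of these genes was smaller at 20 than at 10 ppm, which their choice at 10 ppm favours, so nothing is read about dose. The median of Cyp4a10 was 3.20 CPM at 10 ppm and 3.47 CPM at 20 ppm. For A2m the log2 fold changes were -1.35, -1.66, -2.03 and -0.22. Maml3 and Fbxo38 were near the control level at 2.5 ppm, with -0.10 and -0.06, and reached -0.36 and -0.44 at 5 ppm and -0.31 and -0.37 at 20 ppm. Set directly against the FT 20 ppm mice, 17 of the 22 genes had an unadjusted p under 0.05 (12.7% of all genes), and against FT 2.5 and 5 ppm 6 (13.1%) and 10 (8.38%) had. The genes were chosen for their level in the same FT 10 ppm mice, which favours such differences, so these counts are a description and nothing is read from them. After adjustment only Rpl10a, 0.00960% of the tested genes, differed, between 10 and 5 ppm, with a log2 difference of 2.003 (adjusted p = 0.0322), and FT 10 ppm mouse 2 was again the mouse with 31.5 CPM.

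**Figure D5:**
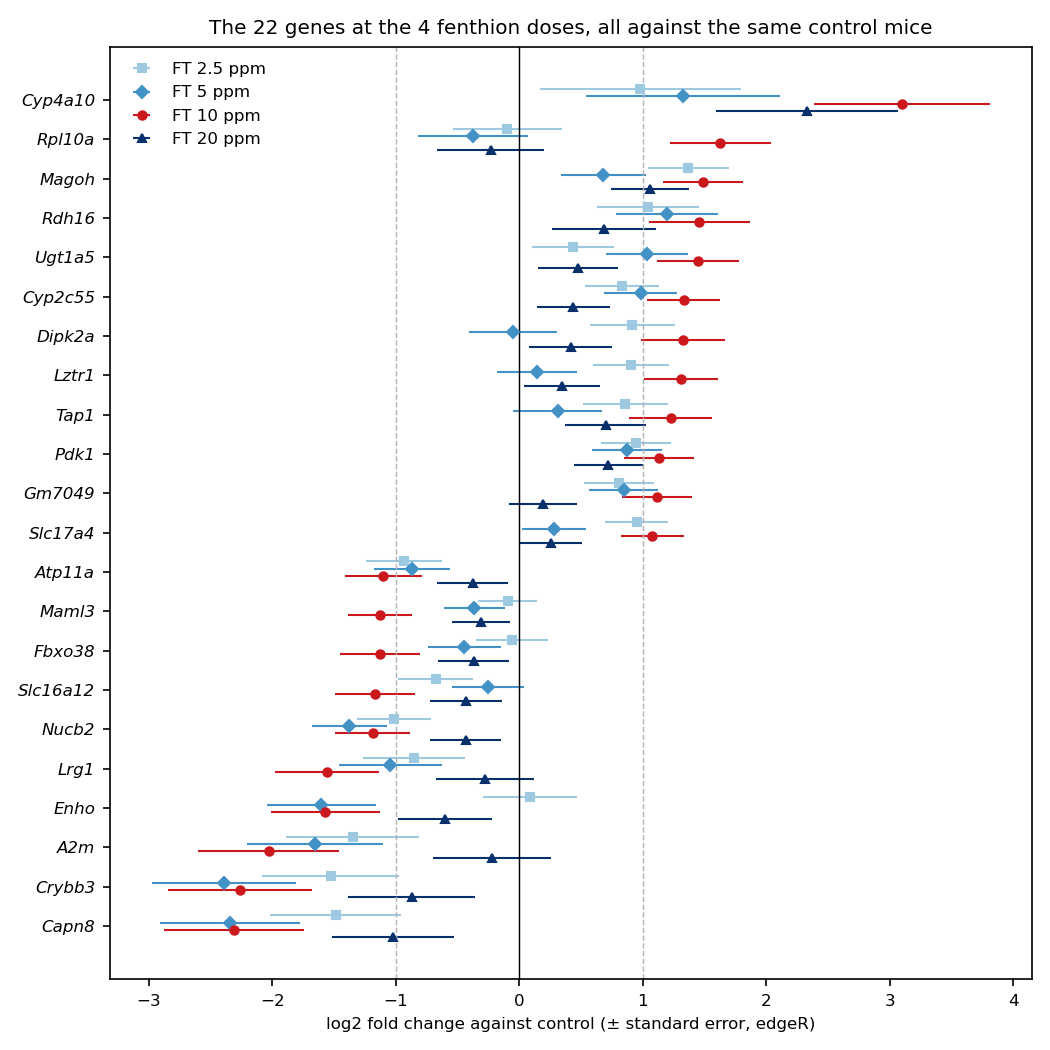
Log2 fold changes (± standard error, edgeR) of the 22 genes at the 4 FT doses against the same 7 control mice, with dashed lines at 2-fold. The genes were chosen at 10 ppm. Of the 22 genes 20 had the same direction at 2.5 ppm, 20 at 5 ppm and 21 at 20 ppm.

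Among the medians of all 12 groups, FT 10 ppm was the most extreme group in the fitted direction for 11 of the 22 genes, and the control was the most extreme in the opposite direction for 7. Since the genes were chosen for the difference between these groups, which favours such ranks, the ranks are a description only. Both held for 3 genes, Pdk1, Enho and Rdh16, and neither for 7. Nucb2 had the highest median in the control (26.1 CPM), whereas 4 groups had a lower median than FT 10 ppm (15.9 CPM). For Maml3, Ugt1a5, Gm7049 and Lztr1 the reverse held, as FT 10 ppm was the most extreme group and at least 1 dosed group lay beyond the control on the other side. The median summed level of acute phase genes was 98965, 99583, 91506 and 113498 CPM at 2.5, 5, 10 and 20 ppm, below the 148949 CPM of the control. Mice at FT 5 ppm ranged from 84090 to 238335 CPM, where mouse 3 alone exceeded the highest control mouse and the next mouse had 119148 CPM.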

How the data were processed

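Livers of 84 mice were profiled by TempO-Seq. Per the study's methods, trimmed reads were mapped by the authors to mm39 (STAR) and assigned to Ensembl transcripts by Partek. The deposited values are estimated counts per gene, 18.7% of them not whole, and were rounded here. The authors' adjusted table was not used. Total counts ranged from 6950381 to 15300589 per mouse, and low counts limit precision. Genes with a median deposited count above 8 were kept, 10415 of 17695. GENCODE coordinates are on GRCm39, the same build, and named 17660 genes. Genes were tested by edgeR 4.0.16 in R 4.3.3 (TMM, quasi-likelihood) over all 84 mice with group, block and RNA isolator as terms, and called at a Benjamini-Hochberg adjusted p under 0.05 and 2-fold. Fold changes are FT against control. CPM are counts scaled to the deposited total of each mouse. Marker sums were compared by an exact permutation test in scipy 1.17.1. limma 3.58.1, DESeq2 1.42.0 and other filters, terms and mouse sets were alternatives. The code was tested on simulated data. Named genes were all called genes, the 10 with the smallest p under 2-fold, Ache, and list members that passed or, for selected lists, came next by p. A few genes that met this rule are not reported here. The comparison and lists were chosen with earlier results of these data known.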

Additional observations from a re-analysis of the deposited data

Results flagged for a closer look

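In 44 groups of 7 mice, each gene's highest and lowest mouse was compared with the next by Dixon's ratio at the critical value for 7 mice, for which chance alone gives about 1 in 20 groups. Of the 22 genes 4 had a mouse that stood far from its group. For Magoh, FT 10 ppm mouse 1 had 3.25 CPM and the next mouse 2.18 CPM. For Lrg1, FT 10 ppm mouse 6 had 172 CPM and the next 84.8 CPM. For Rpl10a, FT 10 ppm mouse 2 had 31.5 CPM and the next 2.06 CPM. For Gm7049, control mouse 7 had 1.05e+03 CPM and the next control mouse 500 CPM.

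Rpl10a also differed between FT doses, with a log2 difference of 2.003 between 10 and 5 ppm (adjusted p = 0.0322 by edgeR), in which FT 10 ppm mouse 2 takes part.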

How the results depend on the processing

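The number of called genes (22) and of genes with an adjusted p under 0.05 (164) depended on the fit. They were 38 and 274 with DESeq2, 12 and 120 with limma, 22 and 67 without a filter on low counts, 3 and 3 with only control and FT 10 ppm mice (0 of them among the 22 or the 164), 2 and 6 with control and all FT mice, and 8 and 39 with mice isolated by EA only. They were 71 and 616 with no covariates, 87 and 900 with block only, and 12 and 58 with isolator only. Without block 1 they were 2 (0 among the 22) and 8, without block 3 0 and 0, and without block 4 41 and 216. Leaving out 1 mouse gave 0 to 50 and 0 to 388. The most were found without FT 10 ppm mouse 6, and 0 without control mouse 5 or FT 10 ppm mouse 4. They were 24 and 76 without control mouse 1, 34 and 251 without control mouse 2, 9 and 49 without control mouse 6, 12 and 58 without FT 10 ppm mouse 2, and 8 and 29 without FT 10 ppm mouse 3. Chosen after seeing the data, leaving out control mouse 1 and FT 10 ppm mouse 2 together gave 9 and 31. The cause was not tested. Of the 22 genes, 21 kept their direction in all 30 alternatives that tested them. Rpl10a turned to -0.23 without both mice, -0.36 without block 1 and -0.0443 without FT 10 ppm mouse 2, and ranged up to 1.85 with 1 mouse left out. Ache turned to 0.15 with control and FT 10 ppm mice only and to 0.12 with EA mice only, neither past the test. With EA mice only, the difference of the pericentral sum turned to -0.0897 and that of the neutrophil and monocyte sum was -0.41 (exact p = 0.149). The median of the conjugating enzymes was 0.0528 without block 3. With 1 mouse left out, list medians ranged from -0.94 to -0.70 for acute phase genes, 0.18 to 0.26 for conjugating enzymes, 0.20 to 0.28 for cytochromes P450 and 0.21 to 0.27 for PPAR alpha targets. The number of all 10415 genes with an unadjusted p under 0.05, in either direction, was 1843 in the reported fit. It was 882 without block 3, 1681 without block 1, 1666 with EA mice only and 1323 with only control and FT 10 ppm mice. Counts of list members from different fits therefore have different backgrounds. Median counts under 50 limit 16 of the 22 genes. No paired analysis was possible because mouse numbers follow the order of the records and pair no mice.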
